A study of Mus musculus with 12 samples.

Results

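Malat1 is a long noncoding RNA that stays in the cell nucleus, and 5 of the 12 deposited pituitary libraries held far more of it than the other 7. These 5 libraries, called Malat1-rich here, had more than 800 Malat1 counts per 1000000 counts of the library (CPM), and the 7 libraries below that level are called Malat1-poor. The libraries were thus chosen by their measured Malat1 level, so differences between the 2 sets are given as a description, without a test. The Malat1-rich set held all 3 ctrl_AA14 libraries, cre_AA14 2 and cre_Vehicle 1. It took 4 of the 6 libraries of AA14-treated mice and 1 of the 6 libraries of vehicle-treated mice, so the split ran across the labels in cre-virus mice and coincided with treatment in control-virus mice.

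The study asked how the pituitary of C57BL/6 mice responded to AA14, a ligand in the submitters' words, with and without the receptor gene Gpr101. All mice carried floxed Gpr101 alleles (Gpr101 fl/fl), and the genotype labels name either an adeno-associated virus called Cga-creAAV or its control Cga-ctrlAAV. Cga encodes the hormone subunit shared by gonadotrophs and thyrotrophs, and the labels give no further detail on where the virus was active. The 4 groups of 3 libraries were cre_AA14 (Cga-creAAV, AA14), ctrl_AA14 (Cga-ctrlAAV, AA14), cre_Vehicle (Cga-creAAV, vehicle) and ctrl_Vehicle (Cga-ctrlAAV, vehicle), all treated for 1 week. Pituitaries had been dispersed into single cells, and RNA was taken from the cells as a bulk. Sex and age, whether cells were sorted before sequencing, and whether a library held 1 mouse or several are details that the sources used here do not state.

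Malat1 RNA gathers in nuclear speckles, the compartments in which splicing factors are stored. Other long noncoding RNAs, among them those of the imprinted Dlk1-Dio3 region, also remain largely in the nucleus, whereas messenger RNAs are exported for translation. The anterior pituitary holds the hormone cells, named after their products (somatotrophs for growth hormone, lactotrophs for prolactin, gonadotrophs, thyrotrophs and corticotrophs), together with Sox2-positive stem and folliculostellate cells and vessels. The intermediate lobe holds melanotrophs, and the posterior lobe holds pituicytes and the axons of hypothalamic neurons that release vasopressin and oxytocin.

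The 12 libraries held between 48693682 counts in cre_Vehicle 1 and 73388221 counts in cre_Vehicle 2, and the totals of the sets overlapped. Between 25631 and 27001 genes had a count in Malat1-rich libraries and between 24650 and 25808 in Malat1-poor libraries. The 7 pituitary hormone genes were expressed in every library, with a summed level of 257335 to 307925 CPM in Malat1-rich and 175984 to 289647 CPM in Malat1-poor libraries. The targeted gene Gpr101 lay between 0.844 and 4.37 CPM in the 6 cre libraries and between 1.21 and 16.8 CPM in the 6 control libraries, so its level did not separate the viruses. Its range was 2.20 to 6.36 CPM in Malat1-rich and 0.844 to 16.8 CPM in Malat1-poor libraries. Oligodendrocyte markers summed to 3527, 2730 and 799 CPM in cre_Vehicle 2, ctrl_Vehicle 3 and ctrl_AA14 1, and cre_AA14 1 had the highest Fos, at 648 CPM. Only ctrl_AA14 1 of these 4 was Malat1-rich.

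In the order ctrl_AA14 1, ctrl_AA14 2, ctrl_AA14 3, cre_AA14 2 and cre_Vehicle 1, which is kept for all Malat1-rich values, Malat1 was at 1407, 1319, 1504, 1107 and 1413 CPM. The Malat1-poor libraries had a lowest value of 208, a median of 349 and a highest value of 545 CPM. The members nearest to the limit of 800 CPM were cre_AA14 2 at 1107 CPM inside it and ctrl_Vehicle 2 at 545 CPM outside it. The ratio of the medians was 2.01 on the log2 scale (log2 of CPM plus 0.1, used for all ratios). Malat1 (ENSMUSG00000092341) lies on chromosome 19 of GRCm38, from 5795690 to 5802672, and its annotated transcript has 1 exon.

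Ghrhr, the somatotroph receptor for growth hormone-releasing hormone on chromosome 6 (55376295 to 55388530), followed the same division of libraries. It was at 267, 271, 298, 242 and 321 CPM in Malat1-rich libraries, and at 87.7 (lowest), 132 (median) and 159 (highest) CPM in Malat1-poor libraries. No Malat1-poor library reached the lowest Malat1-rich one, and the log2 ratio was 1.04. Within the cre-virus libraries alone the log2 ratio was 1.16, and within the control-virus libraries it was 1.03.

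**Figure D1:**
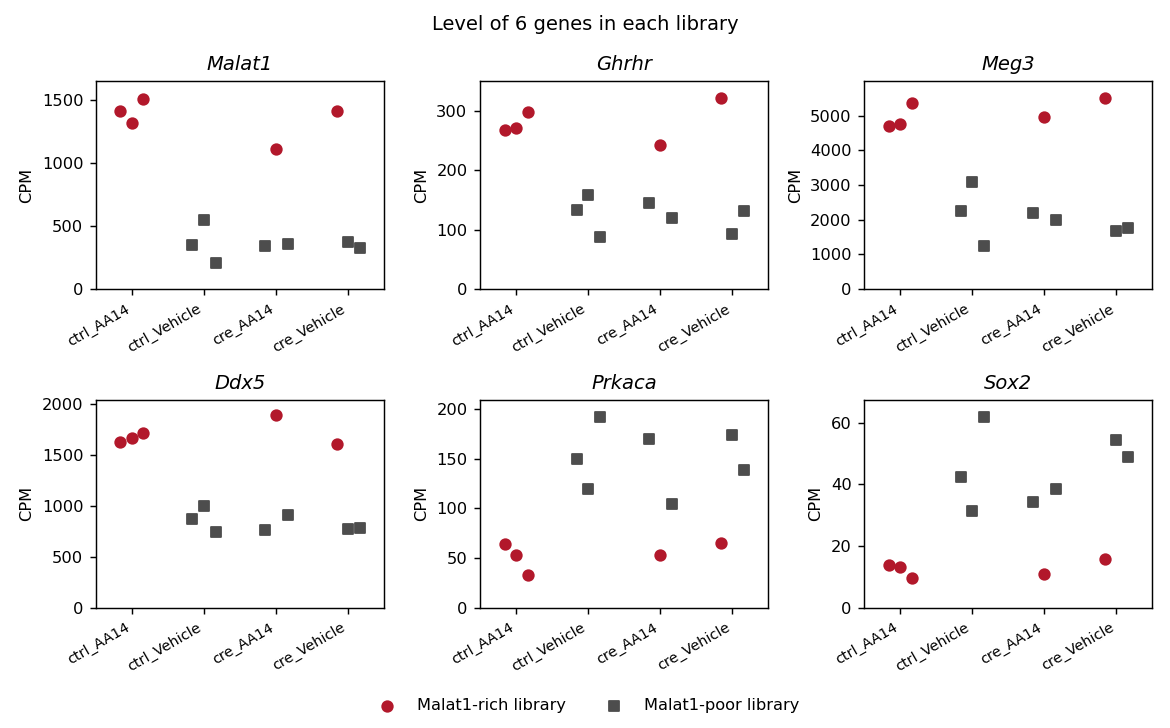
CPM of 6 genes in each of the 12 libraries (1 point per library, y axes from 0), arranged by labelled group, with Malat1-rich libraries as circles and Malat1-poor libraries as squares. For Malat1, Ghrhr, Meg3 and Ddx5 every circle lies above every square, and for Prkaca and Sox2 every circle lies below every square, in cre-virus as well as control-virus groups.

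Of the 16421 genes averaging 1 CPM or more, 1802 (11.0%) were higher in every Malat1-rich library than in any Malat1-poor one, and 2804 (17.1%) were lower in every Malat1-rich library, 28.0% in all. The median log2 ratio of all described genes was -0.03. Genes in the higher group made up 39.1% of these genes without overlap. That share depended on scaling: with library totals taken without the hormone and mitochondrial genes, 2615 genes were higher and 2379 lower, or 52.4% higher. The counts of genes without overlap are the background for each gene class and list that follows.

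The base composition of the transcript ordered these differences. Among the 1005 genes whose longest transcript had under 40% G and C bases, 21.3% were higher and 1.79% lower in all Malat1-rich libraries, with a median log2 ratio of 0.28. Among the 727 genes with 60% or more, 1.93% were higher and 41.3% lower, with a median of -0.66. Between these ends the median stepped down without a break, at 0.17, 0.04, -0.13 and -0.32 in the bins from 40, 45, 50 and 55%.

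The same ordering appeared library by library. A library's median deviation from the mean of all 12, over the genes of 60% or more, lay between -0.65 and -0.21 (log2) in Malat1-rich and between 0.01 and 0.48 in Malat1-poor libraries. Over the genes under 40%, it lay between 0.13 and 0.23 in Malat1-rich and between -0.35 and 0.14 in Malat1-poor libraries, where ctrl_Vehicle 1 overlapped the Malat1-rich range. Nearest to the Malat1-rich libraries at the GC-rich end was cre_AA14 3, at 0.01. With each library centred on its median deviation within bins of 1% GC content, 2162 genes were higher and 2329 lower without overlap, of which 1401 and 1977 were so without centring too.

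Transcript stretches of 100 bases from 3 higher and 3 lower genes serve as examples of low and high GC content. These genes were picked by hand, so the contrast between them does not measure the difference over all genes. Other named genes went the other way, such as Akap8l (higher, 58.6% G and C) and Actr3 (lower, 43.8%). They come from the GENCODE M21 transcripts of GRCm38, with G and C in capitals, and each window was taken where its share of G and C was close to that of the whole transcript. Malat1, Rian and Pou1f1 were higher in all Malat1-rich libraries, and Eef1a2, Jund and Nrtn were lower. The windows of Malat1 and Rian hold 42 and 36 G or C bases, and that of the longest protein-coding transcript of Pou1f1, whose longest transcript of all is a retained-intron form, holds 43. The windows of Eef1a2, Jund and Nrtn, all from protein-coding transcripts, hold 61, 67 and 73.
Malat1: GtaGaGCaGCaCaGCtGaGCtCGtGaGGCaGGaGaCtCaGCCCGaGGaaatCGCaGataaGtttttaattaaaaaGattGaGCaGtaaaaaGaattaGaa
Rian: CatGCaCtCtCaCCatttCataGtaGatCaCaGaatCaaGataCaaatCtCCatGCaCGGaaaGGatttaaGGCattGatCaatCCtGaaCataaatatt
Pou1f1: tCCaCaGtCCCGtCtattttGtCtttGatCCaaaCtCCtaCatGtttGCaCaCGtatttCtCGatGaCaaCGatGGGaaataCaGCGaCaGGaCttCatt
Eef1a2: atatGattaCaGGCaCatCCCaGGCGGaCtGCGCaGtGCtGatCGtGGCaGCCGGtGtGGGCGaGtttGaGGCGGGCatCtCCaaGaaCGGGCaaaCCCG
Jund: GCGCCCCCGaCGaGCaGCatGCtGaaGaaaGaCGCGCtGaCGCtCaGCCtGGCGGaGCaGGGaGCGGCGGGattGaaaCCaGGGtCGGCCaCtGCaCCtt
Nrtn: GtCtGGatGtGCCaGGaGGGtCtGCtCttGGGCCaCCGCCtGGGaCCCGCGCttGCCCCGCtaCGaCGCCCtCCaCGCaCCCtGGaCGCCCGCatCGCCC

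Annotated gene type added to this ordering. TEC genes, a GENCODE type for transcribed loci with no established product, were higher without overlap in 50 of 196 cases and lower in 6, with a median log2 ratio of 0.51. Long intergenic noncoding RNAs (lincRNA) were higher in 70 of 383 and lower in 12, with a median of 0.28, whereas protein-coding genes were higher in 1512 of 14267 and lower in 2688, with a median of -0.05. The protein-coding median was 0.02 when totals were taken without the hormone and mitochondrial genes. Both noncoding types lay above the 11.0% of all genes among the higher genes and below the 17.1% among the lower ones.

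The difference between gene types remained within bins of GC content. From 45 to 50%, the median log2 ratio was 0.59 for 52 TEC genes and 0.32 for 146 lincRNAs, against 0.01 for 3613 protein-coding genes. From 50 to 55% it was 0.39 for TEC genes and 0.16 for lincRNAs, against -0.16 for protein-coding genes. Measured from the median of its own GC bin, the median ratio was 0.36 for TEC genes, 0.28 for lincRNAs and -0.03 for protein-coding genes. The types also differed in level, with a median of 2.02 CPM for TEC genes, 2.92 CPM for lincRNAs and 22.9 CPM for protein-coding genes. They were not matched for level, so gene type and level cannot be told apart here.

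**Figure D2:**
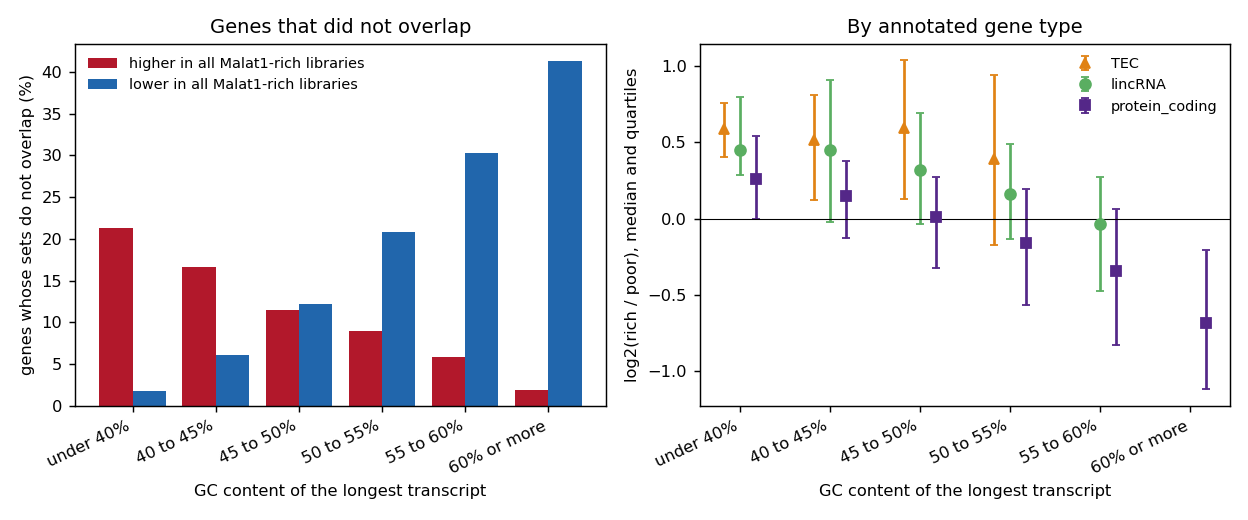
Left, the percentage of genes in each bin of transcript GC content (x axis) that were higher (red bars) or lower (blue bars) in all Malat1-rich libraries, running from 21.3% higher and 1.79% lower under 40% GC to 1.93% higher and 41.3% lower at 60% or more. Right, median log2 ratio of Malat1-rich over Malat1-poor libraries with quartiles (vertical lines) for TEC, lincRNA and protein-coding genes in bins holding at least 20 genes, with TEC and lincRNA medians above the protein-coding one in every bin where they are drawn.

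Several other noncoding types were also above the background of higher genes. Antisense genes were higher in 54 of 391 cases (13.8%) and lower in 25. Processed transcripts were higher in 44 of 265 (16.6%) and lower in 11. Long noncoding RNAs of bidirectional promoters were below the background of 11.0%. Of these 81 genes, 5 were higher (6.17%) and 7 lower (8.64%), with a median log2 ratio of 0.04. Transcribed unprocessed pseudogenes were higher in 13 of 31 and lower in none, with a median log2 ratio of 0.54. Processed pseudogenes, which are intronless copies of messenger RNAs, were higher in 24 of 591 and lower in 45, with a median of -0.06. The sources used here do not state the strand setting of the counts, so reads of an antisense, intronic or TEC locus cannot be told apart from those of an overlapping gene, and pseudogenes can share reads with their parent genes.

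As sums, lincRNAs took 11775 to 13535 CPM in Malat1-rich and 5839 to 10007 CPM in Malat1-poor libraries, and TEC loci took 1076 to 1247 CPM in Malat1-rich and 699 to 939 CPM in Malat1-poor libraries. Neither sum overlapped between the sets, but the lincRNA sum includes Malat1, which set the split, and Meg3. Without Malat1 it was 10369 to 12069 CPM in Malat1-rich and 5631 to 9462 CPM in Malat1-poor libraries. Without Malat1 and Meg3 it was 5416 to 7299 CPM in Malat1-rich and 4376 to 6382 CPM in Malat1-poor libraries, and these sums overlapped. Sense-intronic genes went the other way as a sum, at 260 to 285 CPM in Malat1-rich and 286 to 346 CPM in Malat1-poor libraries. Of their 24 genes, however, 6 were higher without overlap and 1 lower, with a median log2 ratio of 0.57. The lower gene was Peg13, an imprinted noncoding RNA that made up a large part of the sum. The sum without Peg13 was not computed. Peg13 was at 114, 119, 85.4, 119 and 130 CPM in Malat1-rich libraries, against 169 (lowest), 199 (median) and 250 (highest) CPM in Malat1-poor libraries. Its log2 ratio was -0.75.

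A list of 12 long noncoding RNAs, Malat1 included, most of which are known to remain in the nucleus, had 8 members higher without overlap and 1 lower, with a median log2 ratio of 1.17. Malat1 is 1 of the 8 by the choice of the sets, and without it 7 of 11 were higher and 1 lower, with a median of 1.14. Peg13 was the lower member, and Tug1, Miat and Snhg11 overlapped between the sets, with log2 ratios of -0.10, 1.04 and 1.45. The summed level of the 12 was 8207 to 9181 CPM in Malat1-rich and 2570 to 4989 CPM in Malat1-poor libraries, and that of the 11 without Malat1 was 6888 to 7768 CPM in Malat1-rich and 2362 to 4444 CPM in Malat1-poor libraries. The list's 3 maternally expressed noncoding genes of the Dlk1-Dio3 region on chromosome 12, a region that hosts small nucleolar RNAs and microRNAs, were among the higher members.

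Meg3, the first of them, was at 4691, 4770, 5373, 4975 and 5500 CPM in Malat1-rich libraries, against 1256 (lowest), 1986 (median) and 3080 (highest) CPM in Malat1-poor libraries. Rian stood at 1390, 1133, 1263, 1243 and 1162 CPM in Malat1-rich libraries and 365, 499 and 653 CPM (lowest, median, highest) in Malat1-poor libraries. Mirg, the farthest downstream, had 116, 108, 109, 123 and 116 CPM in Malat1-rich libraries, against 17.5, 23.9 and 44.6 CPM in Malat1-poor libraries. The sets were far apart for all 3 genes, and their log2 ratios were 1.32, 1.32 and 2.27, that of Mirg being the largest among named genes whose sets did not overlap.

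Neat1, the RNA scaffold of nuclear paraspeckles, had 137, 130, 127, 130 and 135 CPM in Malat1-rich libraries and 49.2, 58.7 and 79.1 CPM (lowest, median, highest) in Malat1-poor libraries. Its Malat1-rich values lay within a narrow band above all others. Ftx, a noncoding gene of the mouse X-inactivation centre, had 49.7, 44.6, 53.1, 50.4 and 43.2 CPM in Malat1-rich libraries, against 13.6, 18.3 and 22.3 CPM in Malat1-poor libraries. Kcnq1ot1, Snhg14 and Firre, the other higher members, had log2 ratios of 1.20, 0.87 and 1.02. Of the 13 host genes of small nucleolar RNAs found by symbol, 10 overlapped between the sets. Snhg1 and Snhg17 were higher (15.4%), with log2 ratios of 0.80 and 1.06, and Zfas1 was lower (7.69%) at -0.44. Over all genes the shares were 11.0% higher and 17.1% lower. The list's median log2 ratio was 0.51, and 12 of the 13 ratios were positive. The 13 genes summed to 600 to 684 CPM in Malat1-rich and 371 to 615 CPM in Malat1-poor libraries.

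Genes of the SR proteins and other splicing regulators, which control exon choice, held more members higher in all Malat1-rich libraries than any other list described here. Of 34, 25 were higher and 1 was lower without overlap, with a median log2 ratio of 0.64. The helicase gene Ddx5 had 1627, 1673, 1722, 1893 and 1615 CPM in Malat1-rich libraries, against 745, 780 and 1003 CPM (lowest, median, highest) in Malat1-poor libraries. Hnrnph1, encoding an RNA-binding splicing regulator, had 395, 381, 391, 426 and 404 CPM in Malat1-rich libraries and 149, 185 and 237 CPM in Malat1-poor libraries. Neither gene had an overlapping library, and the log2 ratios were 1.10 and 1.09.

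Clk4, a kinase that phosphorylates SR proteins, had 132, 110, 141, 133 and 115 CPM in Malat1-rich libraries and 39.2, 64.1 and 74.7 CPM (lowest, median, highest) in Malat1-poor libraries. Its relatives Clk1 and Clk2 had log2 ratios of 0.94 and 1.00, and Clk3 overlapped at 0.55. Pnisr, encoding an SR-related protein, came close to overlap, with 117, 125, 218, 242 and 172 CPM in Malat1-rich libraries against 65.3, 75.2 and 115 CPM in Malat1-poor libraries. The exception was Srsf9, an SR protein gene with 23.0, 20.6, 13.1, 24.9 and 25.2 CPM in Malat1-rich libraries and 32.0, 42.3 and 45.4 CPM in Malat1-poor libraries, below in each Malat1-rich library. The transcripts of this list had a median GC content of 43.1%, and measured from their GC bins the list's median log2 ratio was 0.51.

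GC content did not place all genes. Akap8l, which encodes a nuclear protein and whose longest transcript is 58.6% G and C, had 99.7, 117, 107, 113 and 126 CPM in Malat1-rich libraries, against 35.5, 43.4 and 61.5 CPM (lowest, median, highest) in Malat1-poor libraries. It was higher by 1.38 on the log2 scale, and by 1.70 when measured from its GC bin. The collagen gene Col27a1, at 59.4% G and C, was higher by 1.98, with its highest Malat1-poor library at 54.4 CPM and its lowest Malat1-rich library at 58.2 CPM. Its ratio was 1.10 within control-virus libraries and 1.26 without the 3 libraries richest in oligodendrocyte markers. Among genes of at least 10 CPM, where the background is 12.4% higher and 21.0% lower, the largest ratios without overlap also included Col24a1 (2.05), Gabre (1.81), Ttn (1.74), Col4a3 (1.57) and the clock gene Per3 (1.37).

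Col24a1 and Ttn have many exons, 60 and 347 in their longest annotated transcripts. Titin, the product of Ttn, is a muscle protein, and Ttn had 28.1, 29.5, 21.4, 24.6 and 27.4 CPM in Malat1-rich libraries, against 4.73, 8.12 and 10.5 CPM (lowest, median, highest) in Malat1-poor libraries. Of 6 skeletal muscle markers, only Mylpf reached a mean of 1 CPM, and the 6 summed to 2.68 to 4.40 CPM in Malat1-rich and 1.51 to 4.81 CPM in Malat1-poor libraries. Mylpf overlapped between the sets, with a log2 ratio of 0.53. The muscle markers were near the lower limit of description, and the source of the Ttn counts was not tested.

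Lower genes of largest ratio had various roles. Sstr1, an inhibitory somatostatin receptor of pituitary cells, had 6.84, 6.71, 5.05, 4.85 and 9.39 CPM in Malat1-rich libraries, against 31.1, 40.6 and 52.6 CPM (lowest, median, highest) in Malat1-poor libraries. Eef1a2, a translation elongation factor gene, had 75.5, 56.7, 29.1, 41.5 and 63.5 CPM in Malat1-rich libraries and 164, 249 and 468 CPM in Malat1-poor libraries. The sets were well separated for both, with log2 ratios of -2.58 and -2.13.

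Srcap, encoding a chromatin remodeller, had 8.55, 13.4, 30.4, 13.5 and 40.3 CPM in Malat1-rich libraries and 74.8, 84.4 and 99.3 CPM (lowest, median, highest) in Malat1-poor libraries. It varied widely among Malat1-rich libraries but stayed below every other library, and its log2 ratio was -2.64 over all libraries, -1.73 within cre-virus libraries and -1.94 without the 3 libraries richest in oligodendrocyte markers or without any 1 of ctrl_AA14 1, ctrl_AA14 2 and cre_AA14 2. The transcription factor gene Nfix, the signalling scaffold Magi2 and the extracellular matrix gene Reln had log2 ratios of -2.14, -2.64 and -3.09. That of Magi2 was -1.74 within cre-virus libraries and -1.17 without the 3 libraries richest in oligodendrocyte markers. Mtss1l, which encodes a membrane-shaping protein, had 19.0, 5.10, 4.96, 2.29 and 22.7 CPM in Malat1-rich libraries, against 27.3, 52.2 and 156 CPM in Malat1-poor libraries, a log2 ratio of -3.33. It was -2.00 within cre-virus libraries, -2.66 after each library's log2 deviations from the gene means were centred on their median in GC bins 1% wide (GC centring), and -2.12 to -2.11 without any 1 of ctrl_AA14 2, ctrl_AA14 3 and cre_AA14 2.

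The genes of the cAMP pathway, which carries the signal of Gs-coupled receptors such as Ghrhr, leaned to lower values. Of 24, none was higher and 8 were lower without overlap, with a median log2 ratio of -0.39, and -0.30 when measured from the GC bins. Prkaca, the catalytic subunit of protein kinase A, had 64.6, 53.2, 33.2, 52.9 and 65.02 CPM in Malat1-rich libraries and 104, 149 and 192 CPM (lowest, median, highest) in Malat1-poor libraries. Adcy5, an adenylyl cyclase, had 72.2, 73.6, 55.5, 78.6 and 77.3 CPM in Malat1-rich libraries and 109, 134 and 173 CPM in Malat1-poor libraries. Both were lower in each Malat1-rich library, with log2 ratios of -1.49 and -0.87. Adcy3, Adcy9, Prkar1b, Prkar2a, Crtc1 and Crtc3 were the other lower members, and Gnas itself overlapped at -0.35.

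Housekeeping and stress lists lay nearer to background. Of 49 cytosolic ribosomal protein genes, 6 were lower and 1 (Rpl14) was higher, with a median log2 ratio of -0.11. Rplp2 stood out among them, at 53.4, 48.4, 35.7, 49.1 and 51.4 CPM in Malat1-rich libraries and 103, 135 and 199 CPM (lowest, median, highest) in Malat1-poor libraries. Ribosomal protein genes have many pseudogenes, so their counts can be shared with copies.

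Among 41 nuclear genes of the respiratory chain, 8 were lower and 2 higher, with a median of -0.01. Sdhc, encoding a subunit of succinate dehydrogenase, was 1 of the lower genes, at 35.7, 33.3, 29.2, 36.8 and 35.9 CPM in Malat1-rich libraries, against 63.9, 72.9 and 98.0 CPM (lowest, median, highest) in Malat1-poor libraries. Of the 13 protein genes of the mitochondrial genome, mt-Co2 and mt-Nd3 were higher without overlap, each with a log2 ratio of 0.43. The 13 had a median of 0.27, and of -0.01 when measured from their GC bins. Of 23 immediate-early and heat shock genes, which rise quickly in stressed cells, 2 (Jund and Klf2) were lower and none higher, with ratios of -0.51 and -0.61 after GC centring in place of -1.50 and -1.23, and Fos spanned 38.3 to 155 CPM in Malat1-rich and 4.99 to 648 CPM in Malat1-poor libraries. Of 15 actin and Arp2/3 genes, 5 were lower (33.3%) and 1 (Arpc3) was higher. The list's median log2 ratio was -0.35, and -0.22 when measured from the GC bins. Its share of lower genes equalled that of the cAMP list. Actr3 was lower with a transcript of 43.8% G and C.

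Replication-dependent histone genes, whose messenger RNAs end without a poly(A) tail, overlapped between the sets as a sum. Of 71, 30 reached a mean of 1 CPM, of which 6 were higher and 3 lower without overlap, with a median log2 ratio of 0.43. The 71 genes summed to 600 to 714 CPM in Malat1-rich and 656 to 805 CPM in Malat1-poor libraries. The median sum, 629 CPM in Malat1-rich and 748 CPM in Malat1-poor libraries, was thus lower while the median ratio of single genes was positive. Histone genes are near-identical copies, and counts of single members are uncertain.

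Hormone genes differed in direction. Gh, encoding growth hormone, had 191002, 212386, 233078, 218293 and 214943 CPM in Malat1-rich libraries, against 96171, 122102 and 190924 CPM (lowest, median, highest) in Malat1-poor libraries. The sets did not overlap, but ctrl_AA14 1 and the highest Malat1-poor library lay almost level. The log2 ratio of Gh was 0.82, and 0.43 without the 3 libraries richest in oligodendrocyte markers. Tshb, the thyrotropin beta subunit gene, had 470, 538, 372, 435 and 501 CPM in Malat1-rich libraries and 153, 240 and 353 CPM in Malat1-poor libraries. Its sets were also apart, with a log2 ratio of 0.97.

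The other hormone genes overlapped between the sets. Prl, encoding prolactin, had 37910, 33698, 54058, 33677 and 31626 CPM in Malat1-rich libraries, against 37142, 68358 and 89957 CPM (lowest, median, highest) in Malat1-poor libraries, a log2 ratio of -1.02. Fshb, Cga and Lhb had ratios of 0.57, 0.53 and 0.49, and Pomc of -0.64. Because libraries were scaled to their totals, and Gh alone took 19.1 to 23.3% of the counts in Malat1-rich and 9.62 to 19.1% in Malat1-poor libraries, a higher Gh share lowers the CPM of all other genes. In bulk RNA, fewer cells of a type and less RNA of that type per cell cannot be told apart.

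Somatotroph markers did not move as 1 block. Gh, Ghrhr and Pou1f1 were higher in all Malat1-rich libraries, Neurod4 overlapped with a log2 ratio of 0.16, and Ghsr was lower. Pou1f1, the transcription factor gene of somatotrophs, lactotrophs and thyrotrophs, had 227, 234, 241, 258 and 197 CPM in Malat1-rich libraries, against 128, 155 and 170 CPM (lowest, median, highest) in Malat1-poor libraries. Ghsr, the ghrelin receptor gene, had 2.45, 2.84, 3.13, 1.91 and 1.93 CPM in Malat1-rich libraries and 4.17, 5.67 and 7.47 CPM in Malat1-poor libraries. Pou1f1 and Ghsr thus lay on opposite sides, with log2 ratios of 0.59 and -1.18.

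The other hormone cell lists were mixed. Of 7 gonadotroph markers, Nr5a1 and Tgfbr3l were lower without overlap (-0.40 and -1.32) and none was higher, although Nr5a1 was at 0.0055 after GC centring, while the hormone genes of the list had positive ratios. Of 5 thyrotroph markers, Tshb was higher and the transcription factor gene Gata2 lower (-0.84). The corticotroph receptor gene Crhr1 was lower (-0.46), Tbx19 and Avpr1b overlapped near 0, and none of the 3 lactotroph markers described was without overlap. The melanotroph factor gene Pax7 had 28.3, 25.6, 12.8, 14.7 and 37.1 CPM in Malat1-rich libraries and 39.0, 59.9 and 76.4 CPM (lowest, median, highest) in Malat1-poor libraries. It was lower throughout, with a log2 ratio of -1.22, while the other 3 melanotroph markers overlapped.

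Stem and folliculostellate markers were lower as far as they were separated at all. Of 10, 4 were lower (Sox2, Sox9, Cpxm2 and Krt8), none was higher, and the median log2 ratio was -0.94. Sox2, the factor of pituitary stem cells, had 14.0, 13.2, 9.79, 10.9 and 15.9 CPM in Malat1-rich libraries, against 31.2, 42.3 and 61.7 CPM (lowest, median, highest) in Malat1-poor libraries. Its partner Sox9 had 6.64, 5.59, 5.45, 5.16 and 6.16 CPM in Malat1-rich libraries and 13.3, 18.7 and 33.3 CPM in Malat1-poor libraries. Both genes have transcripts of average composition, 50.5 and 49.3% G and C, and log2 ratios of -1.67 and -1.72. Cyp2f2, another marker on the list, went the other way with overlap, at 0.54, and the 10 genes summed to 430 to 546 CPM in Malat1-rich and 497 to 701 CPM in Malat1-poor libraries.

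Posterior lobe genes had the lowest median of all lists, -1.09 over 7 genes, of which 3 were lower and none higher. Avp, the vasopressin gene, had 2.59, 1.61, 1.67, 1.67 and 2.05 CPM in Malat1-rich libraries, against 12.03, 17.4 and 306 CPM (lowest, median, highest) in Malat1-poor libraries. Oxt, encoding oxytocin, had 4.67, 6.08, 7.89, 4.72 and 5.22 CPM in Malat1-rich libraries and 14.5, 21.7 and 110 CPM in Malat1-poor libraries. Neither set of values overlapped, and the log2 ratios were -3.30 and -2.03. The transcripts of Avp and Oxt are 65.7% and 60.5% G and C. Measured from their GC bins, the ratios were -2.64 and -1.37, and that of Avp was -2.25 after GC centring. Nkx2-1, a transcription factor gene of pituicytes, was lower by -1.21.

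Markers of oligodendrocytes, astrocytes and brain neurons, cells that come with the neural lobe or adjoining brain, overlapped for every gene. Their median log2 ratios were -0.64 over 10 and -0.66 over 12 genes. The oligodendrocyte markers summed to 81.1 to 799 CPM in Malat1-rich and 124 to 3527 CPM in Malat1-poor libraries, and the astrocyte and neuron markers to 143 to 448 CPM in Malat1-rich and 228 to 1971 CPM in Malat1-poor libraries. No marker of either list was at 0 in all libraries. Their part in the lower posterior lobe and stem cell genes was not tested. Without the 3 libraries richest in oligodendrocyte markers, the log2 ratios of Sox2, Sox9, Avp and Oxt were -1.66, -1.70, -3.30 and -1.92.

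Vessel and connective tissue markers went both ways within a list. Among 10 endothelial genes, Esam and Emcn, which encode surface proteins of endothelial cells, were higher (0.76 and 0.67), and Plvap, Flt1 and Tie1 were lower (-0.94, -0.94 and -0.76). Among 12 mural and fibroblast genes, the pericyte gene Rgs5 was higher (0.59), and Col1a1, Col1a2 and Pdgfrb were lower. Col1a1, a type I collagen gene, had 8.43, 8.28, 10.1, 9.69 and 9.86 CPM in Malat1-rich libraries, against 16.5, 37.4 and 43.9 CPM (lowest, median, highest) in Malat1-poor libraries. It was lower in each Malat1-rich library, with a log2 ratio of -1.94.

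No macrophage marker of 11 and no red cell marker of 5 was without overlap, and the summed macrophage markers were at 134 to 184 CPM in Malat1-rich and 153 to 260 CPM in Malat1-poor libraries. Of 8 lymphocyte markers, 3 reached a mean of 1 CPM. The plasma cell gene Jchain had 11.2, 11.7, 0.750, 3.30 and 9.53 CPM in Malat1-rich libraries, against 0.115, 0.240 and 0.863 CPM (lowest, median, highest) in Malat1-poor libraries. It was high in 4 of the 5 Malat1-rich libraries and low in ctrl_AA14 3, which overlapped.

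**Figure D3:**
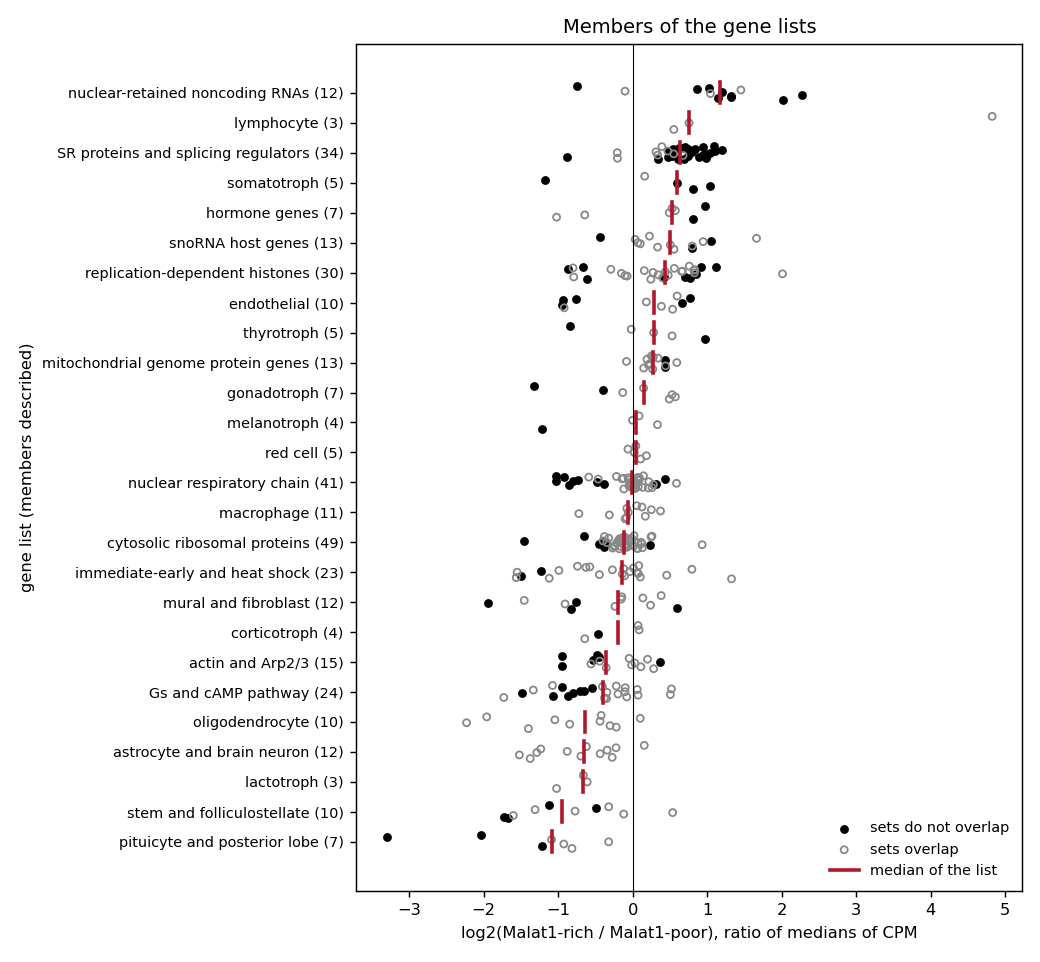
Log2 ratio of median CPM, Malat1-rich over Malat1-poor libraries (x axis), for the members of 26 gene lists (rows, with the number of members described), 1 point per gene, filled where the sets do not overlap and open where they do, with the list's median as a red line. Medians run from 1.17 for nuclear-retained noncoding RNAs to -1.09 for pituicyte and posterior lobe genes, and most cell type lists hold points on both sides of 0.

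The split was then read within each virus, which shares no library with the other. Across the 16421 genes, the log2 ratio of 3 ctrl_AA14 over 3 ctrl_Vehicle libraries and that of 2 Malat1-rich over 4 Malat1-poor cre libraries had a Pearson r of 0.72 and a Spearman rho of 0.80, as a description across genes that share libraries. Since Malat1 divided the cre libraries, these values are no test of a shared effect. In control-virus mice 2567 genes (15.6%) were higher and 4621 (28.1%) lower without overlap, and in cre-virus mice 4274 (26.0%) were higher and 4056 (24.7%) lower in Malat1-rich libraries.

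Of the 2567 genes higher in ctrl_AA14, 2042 were also higher in the Malat1-rich cre libraries, which is 79.5% of the control list and 47.8% of the cre list, and 9 were lower. Of the 4621 genes lower in ctrl_AA14, 3104 were also lower in the Malat1-rich cre libraries, 67.2% of the control list and 76.5% of the cre list, and 26 were higher. The control list had median log2 ratios of 0.57 (higher genes) and -0.56 (lower genes) over the Malat1 split of the cre libraries. By the treatment label in the same cre libraries, cre_AA14 over cre_Vehicle, the medians were 0.07 and -0.20, against -0.05 for all genes.

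**Figure D4:**
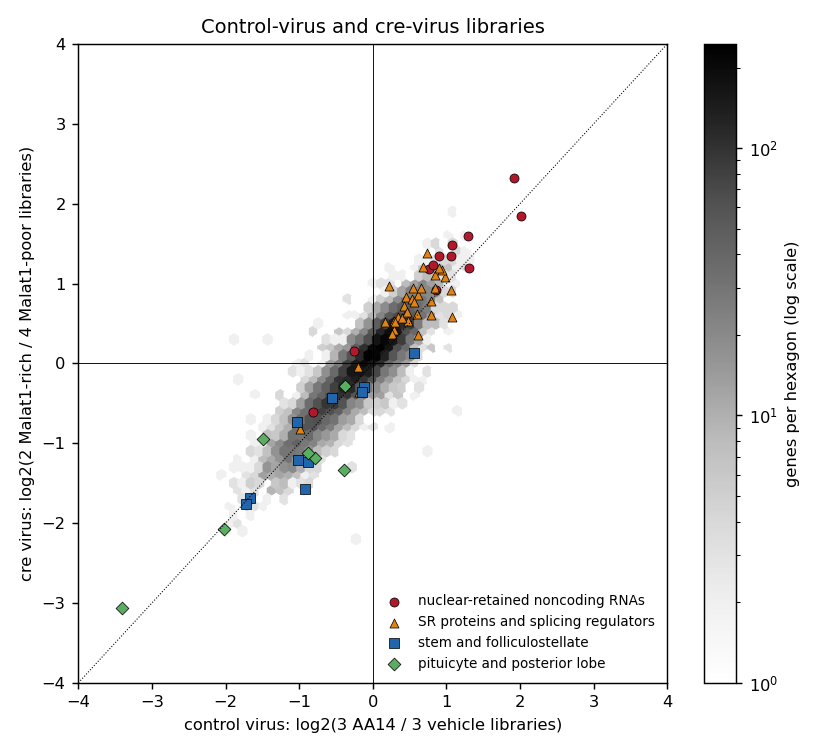
Each gene of at least 10 CPM by its log2 ratio of ctrl_AA14 over ctrl_Vehicle libraries (x axis) and of Malat1-rich over Malat1-poor cre libraries (y axis), as grey hexagons shaded by the number of genes, with members of 4 lists of at least 1 CPM as coloured points. Genes lie along the dotted line of equal ratios, with nuclear-retained RNAs and splicing regulators mostly at the upper right, and stem cell and posterior lobe genes mostly at the lower left.

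Within a treatment, the split could be read across the viruses. Among the 6 AA14 libraries (4 Malat1-rich, 2 Malat1-poor), 4183 genes (25.5%) were higher and 3996 (24.3%) lower, and among the 6 vehicle libraries (1 Malat1-rich, 5 Malat1-poor), 4044 (24.6%) were higher and 5510 (33.6%) lower. Meg3 had log2 ratios of 1.22 within AA14 and 1.64 within vehicle libraries, Ddx5 of 1.02 and 1.05, Ghrhr of 1.03 and 1.28, Prkaca of -1.37 and -1.20, and Sox2 of -1.58 and -1.61. The vehicle values rest on cre_Vehicle 1 alone.

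The labelled comparisons were tested with edgeR's quasi-likelihood test over all 22630 genes that passed its filter. For AA14 in control-virus mice, 1 gene passed an adjusted p of 0.05 (0.00442% of those tested), and 5386 had an unadjusted p below 0.05, of which 1818 (8.03%) were higher and 3568 (15.8%) lower. DESeq2 called 2163 genes for the same comparison. The gene called by edgeR was Gm47308, with a log2 fold change of 7.23 (SE 0.34, adjusted p = 4.53e-06). It had 4.20, 5.07 and 4.30 CPM in ctrl_AA14 and 0.0314, 0.0282 and 0.0287 CPM in ctrl_Vehicle libraries, but 4.38 to 6.47 CPM in cre_AA14 and 4.21 to 5.90 CPM in cre_Vehicle libraries, so it did not follow the Malat1 split. The 3 ctrl_AA14 libraries held 958 of its reads and the 3 ctrl_Vehicle libraries 6, a ratio of 154 in CPM (exact 95% interval 70.4 to 420.4, counting error only).

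Malat1 itself had a log2 fold change of 1.99 for AA14 in control-virus mice (SE 0.61, edgeR adjusted p = 0.141) and of -0.18 in cre-virus mice (SE 0.59, edgeR adjusted p = 1.00). For Ghrhr these were 1.20 (SE 0.42, edgeR adjusted p = 0.144) and -0.07 (SE 0.41, edgeR adjusted p = 1.00). In cre-virus mice no gene passed in edgeR, 519 had an unadjusted p below 0.05 (272 higher, 1.20%, and 247 lower, 1.09%), and DESeq2 called 14. The difference between the effects of AA14 under the 2 viruses did not pass for Malat1 or Ghrhr, with an edgeR adjusted p of 0.631 for each. In control-virus mice all AA14 libraries were Malat1-rich and all vehicle libraries Malat1-poor, so the treatment and the split cannot be told apart there.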

How the data were processed

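For each of the 12 libraries the authors deposited a table of whole-number gene counts. Per the labels' protocols, TRIzol RNA went into NEBNext Ultra RNA libraries, which were read as 150 bp pairs on a NovaSeq and mapped with hisat2 2.0.0. The submitters' processing notes name HISAT, featureCounts 1.5.0-p3, DESeq 1.8.3 and the build GRCm38, while the sources used here do not state the annotation release, the strand setting or the treatment of reads that match several genes. Of 55421 gene IDs, 55154 had a symbol and 55240 an entry in the GENCODE M21 annotation, and up to 0.0135% of a library's counts fell on IDs that had no symbol.

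Counts were divided by the library total and multiplied by 1000000 (CPM), and genes averaging 1 CPM or more over the 12 libraries were described. A ratio is the log2 difference between the median CPM of the sets, each plus 0.1. A gene without overlap has all values of 1 set above all values of the other. Transcript GC content refers to the longest transcript and was known for 99.9% of genes. The members, the 27 gene lists and the comparisons were chosen with earlier results of these data known. Genes named were Malat1, Ghrhr, the 7 hormone genes, up to 15 per direction with the largest ratio among those averaging 10 CPM or more, and up to 4 per list, taking those without overlap first. Further list members, Peg13 and Gm47308 were named after their values were seen.

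AA14 was tested within each virus with edgeR 4.0.16 (R 4.3.3) in a quasi-likelihood fit of 1 mean per group over the 12 libraries, with TMM factors, filterByExpr and Benjamini-Hochberg adjustment over 22630 genes. The standard error (SE) was computed as the size of the log2 fold change over the root of F. Its median was 0.26 for genes averaging 1 CPM or more. The labels do not say that libraries came from separate mice, so p-values measure the spread between libraries. The steps were tested on simulated data in which 200 genes changed. Those data held no shift of many genes at once such as the Malat1 split, so they do not cover that case. Alternatives were other scalings and filters, DESeq2 1.42.0, each library left out, the replicate number as a block and the Malat1 split as a term. Leaving out the libraries highest in oligodendrocyte markers or Fos and centring on GC content were added after seeing the data.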

Additional observations from a re-analysis of the deposited data

Results flagged for a closer look

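The change in Gm47308 with AA14 differed between control-virus and cre-virus mice. Its log2 fold change was 0.19 (SE 0.24) for AA14 in cre-virus mice and 7.23 (SE 0.34) for AA14 in control-virus mice, a difference of -7.04 (SE 0.41) with an adjusted p of 4.36e-05 in edgeR's quasi-likelihood test. The gene was near 0 in the 3 ctrl_Vehicle libraries, at 0.0282 to 0.0314 CPM, and at 4.20 to 6.47 CPM in the other 9 libraries, and a fitted fold change against so few reads depends on the prior count.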

How the results depend on the processing

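The numbers of genes without overlap between Malat1-rich and Malat1-poor libraries were 1796 to 2615 higher and 2379 to 3019 lower under the other scalings, and 1847 to 2308 higher and 2854 to 3143 lower with 1 library left out, where having fewer libraries makes overlap less likely by construction. The values within 1 virus have the same construction: 4622 genes were lower in control-virus libraries alone and 4234 higher in cre-virus libraries alone. Among the ratios of single genes under all alternatives, 2653 moved by less than the spread between libraries and 74 by more, and 1 gene called without overlap changed sign (Nr5a1, at 0.0055 after GC centring). The medians of the macrophage, red cell, melanotroph, respiratory chain, immediate-early, corticotroph and mitochondrial genome lists changed sign under at least 1 alternative, with red cell genes at -0.82 in cre-virus libraries alone.

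For AA14 in control-virus mice, the number of genes past the threshold was 2163 in DESeq2, 4 with the Malat1 split as a term, 2 without a filter, 2 without the 3 libraries richest in oligodendrocyte markers, and 1 to 5 with 1 library left out. Unadjusted p below 0.05 was found for 458 genes with the split as a term, 2380 without those 3 libraries, and 3203 to 5451 with 1 library left out. With the split as a term, Meg3 was at -0.21 and Ddx5 at -0.070. The split coincides with AA14 in control-virus mice, so the effect of the term was estimated from the cre-virus libraries alone. The control-virus values with the term are what remains after that estimate is taken off, and they are no test of AA14. For AA14 in cre-virus mice, DESeq2 called 14 genes, 2 passed without the library highest in Fos, and 0 to 2 passed with 1 library left out. Unadjusted p below 0.05 was found for 307 genes where the filter was a mean of 1 CPM, 789 with the split as a term, and 351 to 1462 with 1 library left out, the last without cre_Vehicle 1. Ghrhr was at 0.064 with the split as a term, and Malat1 and Ghrhr were at 0.081 and 0.021 without the library highest in Fos. With 1 library left out, the cre-virus fold changes (log2) ranged from -0.93 to 0.80 for Malat1, -0.40 to 0.60 for Ghrhr, -0.45 to 0.84 for Meg3, -0.26 to 0.63 for Ddx5 and -0.62 to 0.18 for Prkaca. The cause of these shifts was not tested.

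Libraries with the same replicate number did not deviate together, with correlations between -0.30 and 0.13. In the control groups the correlations lay between -0.22 and 0.05. In the cre groups the Malat1-rich libraries carry different replicate numbers, so the correlations there cannot decide whether the number pairs libraries. With the replicate number as a block, 1 gene passed in control-virus mice (4599 at unadjusted p below 0.05) and 0 in cre-virus mice (358). Genes averaging under 1 CPM were not described, so depth limits what can be said of them.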
